A study of Mus musculus with 5 samples.

Results

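Interferon-stimulated genes were followed in mouse liver through 9 named members: the transcription factor genes Irf1 and Irf7, the antiviral effector genes Ifit1, Ifit2, Ifit3, Rsad2 and Isg15, and the immunoproteasome subunit genes Psmb8 and Psmb9. Members were every probe set annotated with 1 gene symbol from this list, which gave 10 probe sets for 8 genes, out of 20380 such probe sets for 12393 genes on the array. Isg15, a ubiquitin-like protein, has no probe set of its own by this rule, since its probe set is annotated to more than 1 gene, and its expression was not analysed here.

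RNA came from livers of C57B/L mice that were 8 weeks old and had been kept for 2 weeks before feeding began. The chow groups received standard chow for 1 week or for 10 weeks, and the atherogenic diet groups received that feed for 1 week or for 10 weeks. The last group had the atherogenic diet for 10 weeks with atorvastatin, a statin that inhibits cholesterol synthesis, in the final 3 weeks. Livers of a group were pooled and hybridised to 1 array, so there are 5 arrays and no replicates: no spread between animals can be given, no test was possible, and the number of arrays limits the precision. The 1-week diet sample is called chow in its source name but atherogenic in its title, description and protocols, and was grouped by its title. Values are MAS5 signals on a linear scale. For ratios, signals under a floor of 138.9, the 40th percentile of all signals, were set to the floor. A ratio was treated as not measured where both of its signals were under the floor. Ratios are on the log2 scale, where 1 is 2-fold. All 11 hepatocyte markers with a probe set were above that floor on all 5 arrays. The 18S ribosomal RNA control had a geometric mean signal of 13940 on the statin array and 437 to 2185 on the others, and its part in any statin result was not tested.

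Interferons are secreted when a cell senses viral nucleic acid or when lymphocytes are activated, and they act through receptors, JAK kinases and STAT proteins. Type I interferon drives genes with an interferon-stimulated response element, among them the Ifit genes and Rsad2, while interferon gamma acts through gamma-activated sites and the factor encoded by Irf1. In liver, hepatocytes, Kupffer cells and endothelial cells all respond. The immunoproteasome replaces the constitutive catalytic subunits of the proteasome and changes which peptides are cut for presentation on MHC class I.

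The regions before the start sites of 4 members are shown because Ifit1 and Psmb9 were each high on the 10-week diet array alone, Ifit3 shares its motif with Ifit1, and Irf1 carries the other motif searched. Each run is the 250 bases before the RefSeq start site on GRCm38.p6, read 5′ to 3′ on the gene's strand. Capitals mark matches on either strand to the core of the interferon-stimulated response element, searched as 2 copies of GAAA with 2 bases between them, or to the gamma-activated site TTCNNNGAA.

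Ifit1, chr19:34640639-34640888, plus strand: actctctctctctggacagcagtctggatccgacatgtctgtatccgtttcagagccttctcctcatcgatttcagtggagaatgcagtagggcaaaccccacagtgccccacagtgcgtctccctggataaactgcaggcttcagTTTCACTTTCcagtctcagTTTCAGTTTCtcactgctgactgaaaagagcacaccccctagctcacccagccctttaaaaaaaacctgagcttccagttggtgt

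Ifit3, chr19:34583279-34583528, plus strand: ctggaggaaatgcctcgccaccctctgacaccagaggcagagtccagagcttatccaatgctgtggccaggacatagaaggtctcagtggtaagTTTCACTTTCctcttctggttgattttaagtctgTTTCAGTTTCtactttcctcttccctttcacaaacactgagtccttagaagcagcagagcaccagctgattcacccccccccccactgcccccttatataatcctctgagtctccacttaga

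Irf1, chr11:53769764-53770013, plus strand: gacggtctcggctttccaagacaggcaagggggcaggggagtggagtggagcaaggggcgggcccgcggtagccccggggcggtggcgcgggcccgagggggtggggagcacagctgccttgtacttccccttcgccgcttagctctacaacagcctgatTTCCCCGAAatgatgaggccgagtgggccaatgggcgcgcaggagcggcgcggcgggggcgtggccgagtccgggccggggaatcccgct

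Psmb9, chr17:34187331-34187580, minus strand: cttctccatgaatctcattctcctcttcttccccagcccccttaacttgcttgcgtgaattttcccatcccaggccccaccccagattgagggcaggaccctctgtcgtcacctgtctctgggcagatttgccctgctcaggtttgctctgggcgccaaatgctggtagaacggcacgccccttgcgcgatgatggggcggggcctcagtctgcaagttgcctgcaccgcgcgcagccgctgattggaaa

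The response element core was found 2 times each in Ifit1 and Ifit3, starting 104 and 85 bases before the Ifit1 start site and 156 and 122 before that of Ifit3. Over the 11 windows of all 9 members, from 250 bases before to 50 after a start site, 4 genes held the core: Ifit1, Ifit3, Rsad2 and Isg15. It occurs in 3.44% of 32851 such windows. TTCNNNGAA was found in 3 members, Irf1, Ifit2 and Psmb8, and in 8.30% of all windows. Of the 3 matches in Isg15 each overlaps its neighbour, and no match of 1 motif overlaps a match of the other. The windows of Irf7 and Psmb9 held neither, which says only that these letters are not there. A match describes the sequence and is no measurement of binding.

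Among the transcription factor genes, Irf1, which encodes an activator of interferon gamma targets and of the immunoproteasome, had its higher signals on both long diet arrays. Its signal was 857 on chow and 878 on the diet at 1 week, 682 on chow and 1266 on the diet at 10 weeks, and 1242 with atorvastatin. All 3 diet arrays lay above both chow arrays, the 1-week diet array by little, and both arrays of 10 weeks of diet lay clearly above the other 3. How many of all probe sets have every diet array above both chow arrays was not counted, here or for the members below. The log2 ratio of the diet over chow was 0.89 at 10 weeks and 0.034 at 1 week. Set against chow of 1 week instead, the 10-week diet ratio was 0.56. Between the diet arrays with and without atorvastatin the log2 ratio was -0.028.

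Irf7 encodes the factor that amplifies type I interferon production. Its signal was 538 on chow and 755 on the diet at 1 week, 574 on chow and 845 on the diet at 10 weeks, and 657 with atorvastatin. All 3 diet arrays lay above both chow arrays. The diet ratio was 0.56 at 10 weeks and 0.49 at 1 week, a pair of values that share no array, and the ratio with atorvastatin over the diet alone was -0.36. None of these reached 2-fold.

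**Figure D1:**
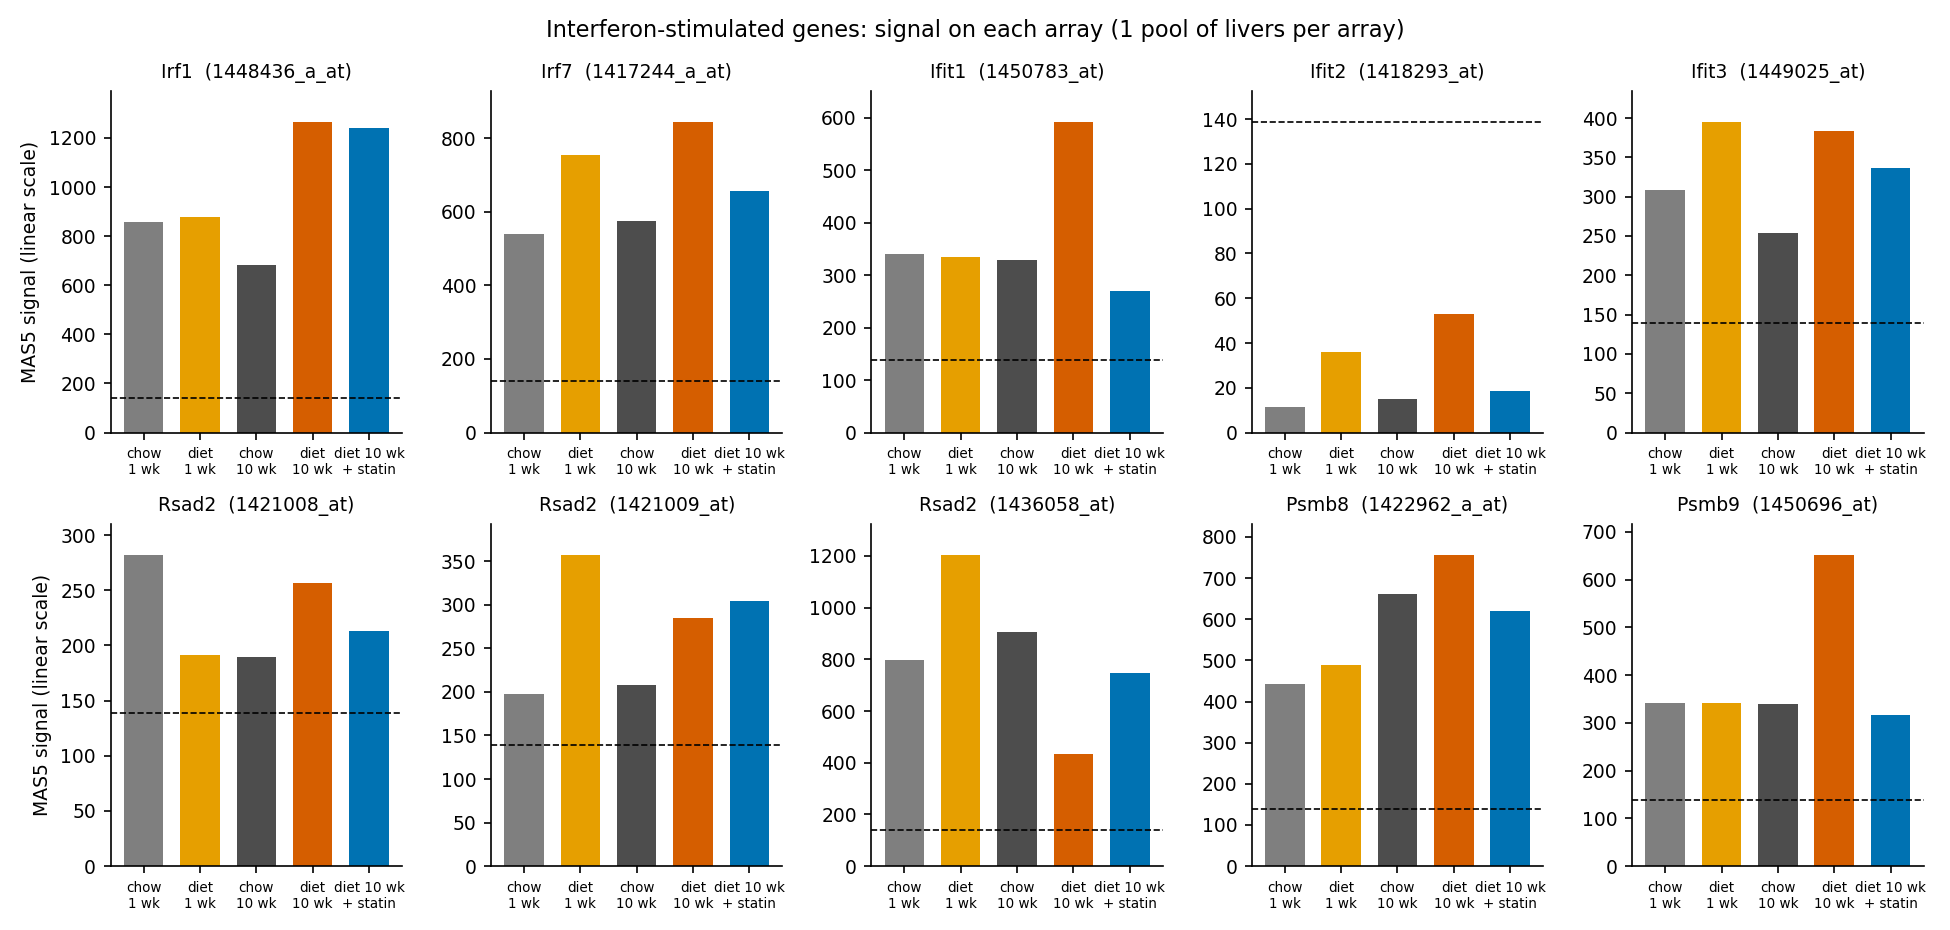
Deposited MAS5 signal (vertical axes, linear and from 0) of each of the 10 member probe sets on the 5 arrays, 1 pool of livers per array and no error bars; the dashed line is the floor of 138.9. Psmb9 and Ifit1 have 1 tall bar, on the 10-week diet array at 651 and 593, while Irf1 is high on both 10-week diet arrays and Ifit2 stays under the floor.

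The Ifit genes encode proteins with tetratricopeptide repeats that bind viral RNA or limit its translation. Ifit1 stood out on 1 array. Its signal was 340 on chow and 335 on the diet at 1 week, 330 on chow at 10 weeks, 593 on the diet at 10 weeks and 269.9 with atorvastatin. Only the 10-week diet array was high, and the other 4 spanned 269.9 to 340. Its log2 ratio was 0.85 for the diet over chow at 10 weeks, -0.020 at 1 week, and -1.14 for atorvastatin over the diet alone, 2.20-fold lower.

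Ifit3 was lower on both chow arrays, at 309 at 1 week and 254 at 10 weeks, than on the diet arrays, at 396 at 1 week, 384 at 10 weeks and 337 with atorvastatin. The feeds did not overlap, a pattern whose share among all probe sets was not counted. The lowest diet signal exceeded the highest chow signal by only 0.12 on the log2 scale. Ratios of diet over chow were 0.60 at 10 weeks and 0.36 at 1 week. Ifit3b and Ifit1bl2 lie between Ifit3 and Ifit1 on chromosome 19, and how far the Ifit3 probe set also reads such close copies was not tested. The Ifit2 signals, 11.6 to 52.8, were under the floor on all 5 arrays, so no ratio is given for it.

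Rsad2, which encodes viperin, an antiviral radical SAM enzyme, has 3 probe sets, and they did not give 1 pattern. The brightest, 1436058_at, read 799 on chow and 1203 on the diet at 1 week, 905 on chow and 434 on the diet at 10 weeks, and 746 with atorvastatin. It was lowest on the 10-week diet array, 2.08-fold below chow (log2 -1.06), and highest on the 1-week diet array. Probe set 1421009_at read 197 and 357 at 1 week, 208 and 285 at 10 weeks, and 304 with atorvastatin, with all diet arrays above both chow arrays. Probe set 1421008_at read 282 and 191 at 1 week, 189 and 256 at 10 weeks, and 213 with atorvastatin, with the feeds overlapping.

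For the 10-week diet over chow the Rsad2 probe sets thus gave -1.06, 0.46 and 0.44, and their mean was -0.055. The 2-fold difference of 1436058_at did not hold against the 1-week chow array (-0.88), against the mean of both chow arrays (-0.97), or with a pseudocount of 50 in place of the floor (-0.98). No direction is given for Rsad2 as a gene.

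Psmb9 encodes LMP2, the immunoproteasome subunit that takes the place of the caspase-like subunit. Its signal was 341 on chow and 342 on the diet at 1 week, 340 on chow at 10 weeks, 651 on the diet at 10 weeks and 315 with atorvastatin. The 10-week diet array was 1.91-fold the next highest, and the other 4 lay within 315 to 342. The log2 ratio of atorvastatin over the diet alone was -1.05, 2.06-fold lower; with a pseudocount of 50 it was -0.94, inside 2-fold.

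Psmb8 encodes LMP7, the chymotrypsin-like subunit of the same particle. Its signal was 442 on chow and 490 on the diet at 1 week, 660 on chow and 756 on the diet at 10 weeks, and 621 with atorvastatin. Its 3 arrays at 10 weeks all lay above its 2 arrays at 1 week, whatever the feed. How many of all probe sets split by time in this way was not counted. The diet ratio at 10 weeks was 0.19 against the chow array of that time and 0.78 against the 1-week chow array. Psmb8 and Psmb9 flank Tap1, the peptide transporter gene, on chromosome 17 with no other protein-coding gene between. Tap1 had a different order from either neighbour: 337 and 395 at 1 week on chow and the diet, 761 and 469 at 10 weeks, and 443 with atorvastatin.

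Psmb10, the remaining immunoproteasome subunit gene, read 474 and 415 at 1 week on chow and the diet, 486 and 667 at 10 weeks, and 528 with atorvastatin. It was highest on the 10-week diet array, with a ratio of 0.46 over chow. The constitutive subunits that these replace had diet ratios at 10 weeks of 0.47 for Psmb6, the partner of Psmb9, -0.31 for Psmb5, the partner of Psmb8, and 0.24 for Psmb7, the partner of Psmb10. With atorvastatin over the diet alone Psmb6 had 0.29 where Psmb9 had -1.05. Psme1, a subunit of the interferon-inducible proteasome activator, had -0.16 for the diet over chow at 10 weeks and 0.30 for atorvastatin over the diet.

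**Figure D2:**
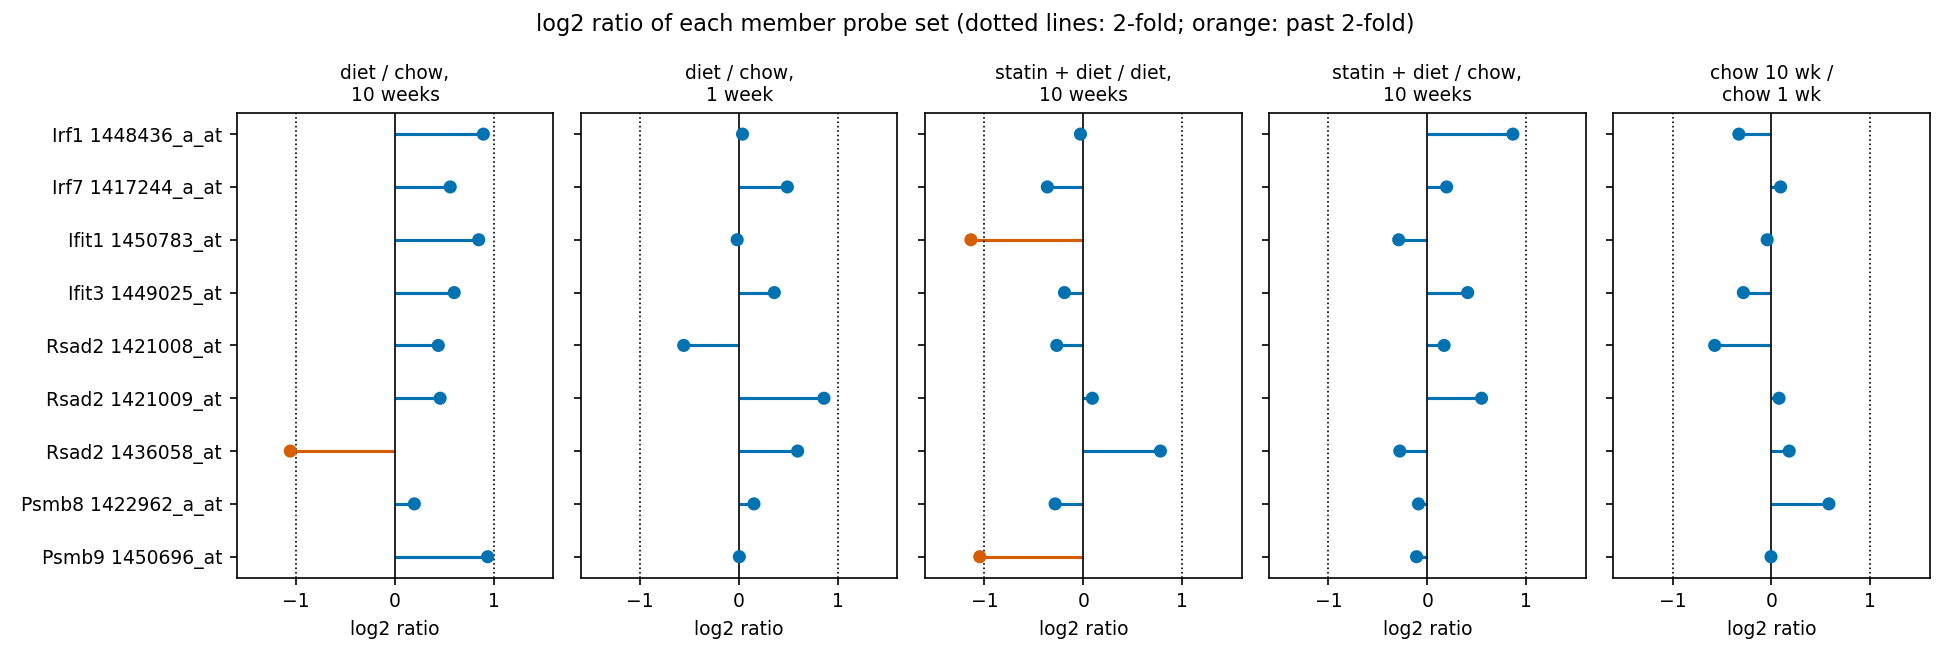
log2 ratio (horizontal axes) of the 9 member probe sets above the floor in 5 comparisons, 1 point per probe set from 1 array per side, with dotted lines at 2-fold and orange for points past it. At 10 weeks of diet 8 of 9 points lie right of 0 with Rsad2 1436058_at at -1.06, and with atorvastatin over the diet Ifit1 (-1.14) and Psmb9 (-1.05) lie past 2-fold to the left.

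Read together for the diet against chow at 10 weeks, 8 of 9 measured probe sets were higher on the diet, where 53.5% of all 13850 measured probe sets were. Their median log2 ratio was 0.56, against 0.045 over all. Past 2-fold in either direction stood 1 of 9, Rsad2 1436058_at, against 7.07% of all, and past 1.5-fold 5 of 9, 4 of them higher, against 25.9%. With 1 probe set per gene the 7 measured genes had a median of 0.60 and all 9250 genes 0.053. The median of the 7 genes lay between 0.55 and 0.65 over all 11 settings tried, both other chow references among them.

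At 1 week of diet against chow, 7 of 9 probe sets were higher, where 46.4% of all measured probe sets were, with a median of 0.15 against -0.034 over all. None was past 2-fold, where 2.94% of all probe sets were, and 2 of 9 were past 1.5-fold, Rsad2 1421009_at (0.86) and 1436058_at (0.59), against 16.2%. Irf7 at 0.49 and Ifit3 at 0.36 were positive at this time as at 10 weeks. Irf1, Ifit1 and Psmb9 had ratios of 0.034, -0.020 and 0.0017 here. A difference of the diet ratio between the times was not tested.

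Where atorvastatin had been added to the diet, set over the diet alone, 7 of 9 probe sets were lower. Of all measured probe sets 47.5% were higher in that comparison. The member median was -0.27, against -0.025 over all. Ifit1 and Psmb9 were past 2-fold lower, 2 of 9 against 4.49% of all in either direction, and 3 of 9 were past 1.5-fold, with Rsad2 1436058_at higher (0.78), against 20%. This comparison and that of the diet over chow at 10 weeks share the 10-week diet array, so a deviation of that array enters both with opposite signs. Atorvastatin on the diet over 10-week chow, which does not use that array, gave -0.29 for Ifit1 and -0.11 for Psmb9. In that comparison 0 of 9 were past 2-fold, where 5.90% of all were, and 1 of 9, Irf1 at 0.86, past 1.5-fold, where 23% were.

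The same-feed pairs give the scale of differences without a change of feed. Between chow at 10 weeks and at 1 week 0 of 9 probe sets were past 2-fold, against 4.63% of all, and 0 of 9 past 1.5-fold, against 20.7%; the largest were Psmb8 at 0.58 and Rsad2 1421008_at at -0.57. Between the diet at 10 weeks and at 1 week 1 of 9 was past 2-fold, Rsad2 1436058_at at -1.47, against 10.2%, and 4 of 9 past 1.5-fold, against 32.3%. Psmb9 had 0.93 and Ifit1 0.82 in that pair.

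**Figure D3:**
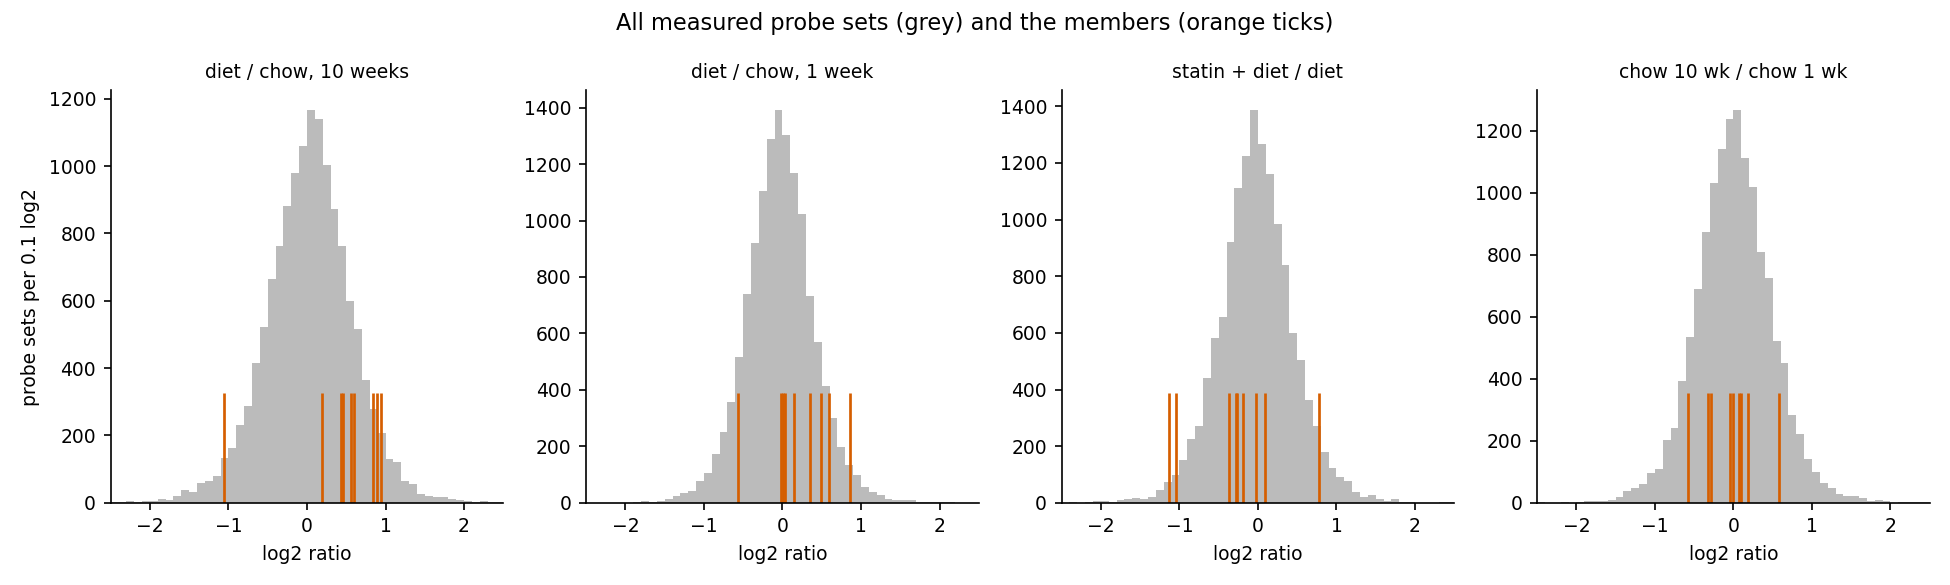
Number of measured probe sets per 0.1 log2 (grey, vertical axes) by log2 ratio (horizontal axes) in 4 comparisons, with an orange tick for each of the 9 measured member probe sets. At 10 weeks of diet the ticks lie right of the centre except for 1 at -1.06, and in the chow pair they lie between -0.57 and 0.58.

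By a rule chosen after the values were seen, a probe set was counted for an array that exceeded the next highest array by at least 1.5-fold. Of the 10 member probe sets, 2 were counted for the 10-week diet array, Psmb9 and Ifit1, and 0 for the others. Of all 14929 probe sets above the floor on any array, 2.53% were counted for the 10-week diet array and 0.583% to 1.79% for each of the others. At 2-fold neither member was counted.

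Macrophage markers moved with part of these results. Kupffer cells are the resident macrophages of liver. Of 15 markers with a probe set 14 were measured and all 14 higher on the diet than on chow at 10 weeks, where 54.3% of all genes were. Their median was 0.71, and 4 were past 2-fold, Adgre1, Clec4f, Cd5l and Tyrobp, against 6.70% of all genes in either direction. The same markers were low on the 10-week chow array. Against 1-week chow 13 of 15 were lower there, where 51.1% of all genes were higher. The marker median was -0.66. Clec4f, Cd5l and Marco, 3 of 15, were past 2-fold, against 4.43% of all genes in either direction. Their summed signal was 19480 on chow and 17120 on the diet at 1 week, 13090 on chow and 21690 on the diet at 10 weeks, and 31910 with atorvastatin. On the statin array 14 of 15 were higher than on the diet alone, against 47.5% of all genes. Only Marco was past 2-fold, at 3.02 or more since its diet signal was under the floor, against 4.33% of all genes. Psmb9 and Ifit1 were more than 2-fold lower in that comparison, so the markers and these genes went in opposite directions there. In a pool of whole liver, more cells of a type and more RNA per cell cannot be told apart, and the part of the macrophage markers in the diet result was not tested.

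Hepatocyte markers moved too, and in the opposite direction. All 11 with a probe set were lower on the diet than on chow at 10 weeks, where 54.3% of all genes were higher. Their median was -0.49, with Apob and Arg1 past 2-fold, against 6.70% of all genes in either direction. Between the chow arrays 10 of 11 were higher at 10 weeks, where 51.1% of all genes were. The median was 0.68, with Alb, Serpina1c and Cyp2e1 past 2-fold, against 4.43% of all genes in either direction. Their summed signal was 446600 on 10-week chow and 238900 to 322700 on the other 4 arrays, so the chow array used as the 10-week reference stood apart. At 1 week of diet the median was -0.15, and with atorvastatin over the diet it was -0.0060. The part of the hepatocyte markers in the diet result was not tested.

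Of 12 T and NK cell markers, Cd3d and Cd4 were under the floor on all arrays and only 2 were above it on all. Their summed signal ran from 1316 to 1733 and held many signals under the floor. For the diet over chow at 10 weeks 5 of 8 measured were higher (median 0.38), where 54.3% of all genes were, and 0 past 2-fold, against 6.70%. With atorvastatin over chow 1 of 7 was past 2-fold, Il2rb (1.14), against 5.56% of all genes. Endothelial markers had a median of 0.45 for the diet over chow at 10 weeks. Past 2-fold higher were 3 of 10, Cdh5, Lyve1 and Oit3, against 6.70% of all genes in either direction. On 10-week over 1-week chow 9 of 10 were lower, with a median of -0.39, where 51.1% of all genes were higher. Lyve1 at -2.83 and Oit3 at -1.57 were past 2-fold there, against 4.43% of all genes in either direction. Lyve1 read 988 on 1-week chow, 88.8 on 10-week chow, under the floor, and 477 on the 10-week diet, so its ratios to 10-week chow are bounds. With atorvastatin over the diet 2 of 10 were past 2-fold lower, Cdh5 (-2.40) and Oit3 (-1.02), against 4.33% of all genes in either direction. In that comparison 4 of 10 were higher, among them Tek (0.72), and the median was -0.13 against -0.025 over all genes. Cdh5 has a second probe set that gave -0.48 there and -0.29 for the diet over chow. The second probe set of Lyve1 gave 0.53 for the diet over chow at 10 weeks where the first gave 1.78. Between the chow arrays it gave -0.37 where the first gave -2.83. At 10 weeks of diet over chow, 5 of 5 measured B and plasma cell markers were higher, with a median of 0.40. So were 7 of 8 stellate cell and fibroblast markers (0.24), 4 of 6 neutrophil markers (0.39) and 3 of 6 dendritic cell markers (0.084). Of all genes 54.3% were higher. In these lists only Col3a1, a stellate cell and fibroblast marker, was past 2-fold (1.02), against 6.70% of all genes. The part of all these markers in the results was not tested.

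**Figure D4:**
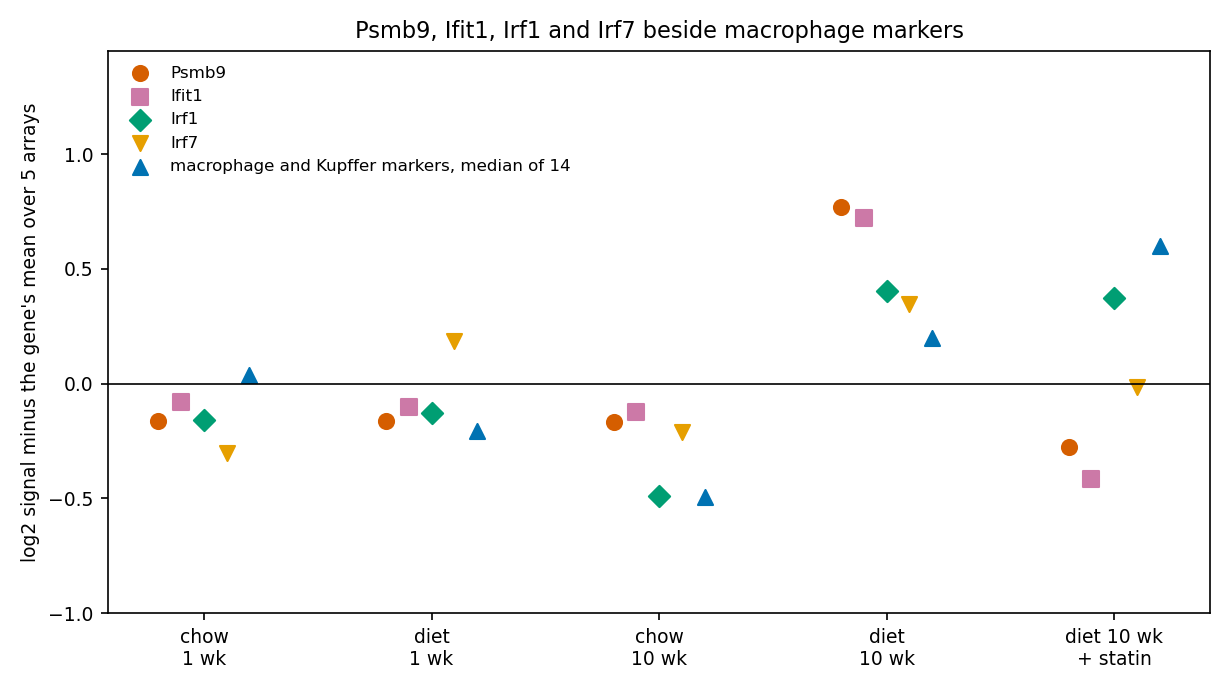
log2 signal minus the gene's own mean over the 5 arrays (vertical axis) for Psmb9, Ifit1, Irf1 and Irf7, beside the median of the 14 macrophage and Kupffer cell markers above the floor on all arrays; each point is 1 array. On the 10-week diet array Psmb9 is at 0.77 and Ifit1 at 0.72 with the markers at 0.20; on the statin array they are at -0.28 and -0.41 with the markers at 0.60.

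The wider pathway was read from 10 lists holding 137 genes other than the members, 112 of them with a probe set. For the diet over chow at 10 weeks, 62 of 95 measured genes were higher, with a median of 0.22, where 54.3% of all genes were higher. Past 2-fold stood 3 of 95, against 6.70% of all genes: Gbp6 higher, and Socs1 and Ptpn2 lower. Gbp6, an interferon-inducible guanylate-binding protein gene, read 158 and 116 at 1 week on chow and the diet, 90.4 and 462 at 10 weeks, and 174 with atorvastatin, so it too was high on the 10-week diet array. Its chow signal at 10 weeks was under the floor, so the diet was at least 3.33-fold higher.

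Socs1 and Ptpn2, both encoding restraints on JAK and STAT signalling, were highest on the 10-week chow array, at 401 and 1140. The other Ptpn2 probe set above the floor gave 0.32 where this one gave -1.15. Among 31 measured type I effectors 24 were higher (median 0.24), where 54.3% of all genes were, and 0 past 2-fold, against 6.70% of all genes. The brightest of that list were Ifitm3 and Ifitm2, membrane proteins that block virus entry, at -0.050 and -0.080, Lgals9, a galectin, at 0.62, and Trim25, a ubiquitin ligase of RNA sensing, at -0.76. Ifi27l2a and Rtp4, which passed 2-fold in other comparisons, had 0.83 and 0.78. Of 16 measured type II effectors 11 were higher (median 0.37), where 54.3% of all genes were. Gbp6 higher and Socs1 lower were past 2-fold, against 6.70% of all genes. The chemokine gene Cxcl9 had 0.91 and the GTPase genes Igtp and Iigp1 0.73 and 0.66. The complement inhibitor gene Serping1 had 0.45 and the MHC class II chaperone gene Cd74 -0.18. MHC class I genes had a median of 0.10 over 11, but their probe sets disagreed. B2m, the light chain gene, had -0.046 from 1 probe set and -1.03 from its other, which read 25634 on chow and 12509 on the diet at 10 weeks. For the heavy chain gene H2-K1 the brightest probe set gave 0.10 and the others -0.47 to 0.46, and for H2-D1 the brightest gave 0.37 and the others -0.67 to 0.69, so no direction is given for these 3 genes.

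Of 8 interferon genes with a probe set, 4 were under the floor on all arrays, Ifng among them. For the diet over chow at 10 weeks 0 of 3 measured were past 2-fold, against 6.70% of all genes. Receptor and kinase genes had a median of 0.11 over 8. The brightest were Ifnar2, a chain of the type I receptor, at 0.19 at 10 weeks and 0.22 at 1 week of diet, and the kinase gene Jak1 at 0.021 and -0.10. Ifngr1, a chain of the interferon gamma receptor, had -0.90 and -0.79. For Ifngr2, its other chain, 1 probe set gave 0.48 and -0.27 and the other 0.12 and -1.03. Stat2 and Irf9, transcription factor genes of the type I response, had 0.55 and -0.027 at 10 weeks. Psme2 was not analysed here. Among further interferon regulatory factor genes, Irf3 had 0.53 from its brightest probe set and -0.58, 1.05 and 0.40 from the others, which gives it no settled direction. Irf5 had 0.54 and 0.22 from its probe sets, and Irf2, which encodes an antagonist of Irf1, 0.32. Irf8 had -0.085 from its brightest probe set. Its other gave -1.21, a bound, since the diet signal of 53.7 was under the floor. Among the sensors and adaptors Ifih1, a sensor of double-stranded RNA, had 0.45, its adaptor Mavs -0.044, Myd88 -0.23 and Tbk1 -0.46.

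In the other comparisons the wider lists showed few differences of 2-fold. At 1 week of diet 2 of 96 genes were past it, against 2.31% of all: Rtp4 (1.32) and Ptpn2 (1.12, but -0.21 from its other probe set), with a list median of 0.037. With atorvastatin over the diet 1 of 95 was, against 4.33%: Gbp6 lower (-1.41), with Cxcl9 at -0.64, Igtp at -0.079, Lgals9 at -0.64 and Calr, a chaperone of MHC class I loading, at -0.81. Of 11 MHC class I genes 1 was higher in that comparison, where 47.5% of all genes were, and their median was -0.16 against -0.025 over all genes. That count takes the brightest probe set of each gene, and others disagreed. The other B2m probe set gave 0.385, those of H2-K1 -0.16 to 0.51 and those of H2-D1 -0.69 to 0.33. With atorvastatin over chow 4 of 93 listed genes were past 2-fold, against 5.56%: Ifi27l2a (1.05) and Icam1 (1.07) higher, Bst2 (-1.35) and Ptpn2 (-1.46, and -0.64 from its other probe set) lower. Bst2, which encodes tetherin, was lowest of the 5 arrays with atorvastatin, at 742 against 1146 to 1895.

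Between the chow arrays 3 of 94 were past 2-fold, against 4.43%: Socs1, Tap1 and Ptpn2, all higher at 10 weeks, though the other Ptpn2 probe set gave -0.036. Between the diet arrays at 10 weeks and 1 week 8 of 97 were, against 8.54%: Oas2, Lgals9, Isg20, Gbp6, Igtp, Cxcl9 and Tapbpl (1.01, but -0.48 from its other probe set) higher, and Socs3 lower (-1.34, and -0.86 from another of its probe sets). The shares past 2-fold in the wider lists lay near or under those of all genes, and 1 more gene would have put the 1-week diet and the diet pair above them.

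The genes whose signals over the 5 arrays lay nearest to the mean profile of 7 members were Nadk, Inpp5b, Phldb2, Rab43 and Tbl1x. The distance is the root mean square difference of centred log2 signals, taken over 5 arrays and 6908 genes. It was 0.011 for Nadk and 0.041 for Tbl1x, against a median of 0.30 for all genes. Nadk, which encodes NAD kinase, read 3149 and 3618 at 1 week on chow and the diet, 3154 and 4281 at 10 weeks, and 3417 with atorvastatin. The mean profile itself is shallow, from -0.17 on 1-week chow to 0.28 on the 10-week diet, so that genes of many kinds can lie close to it.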

How the data were processed

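The submitters' processing notes name MAS5. The authors deposited 1 intensity (MAS5 signal, linear scale) per probe set and array, with a 2% trimmed mean near 500.2 on each array, as tested on the values. The MAS5 version and the genome build were not given in the sources used here, and scanner files and detection calls were not used here. Genes come from the platform annotation: 691 probe sets with several symbols and 1606 not listed were left unnamed, and 99.8% of gene identifiers were found in the table of assembly GRCm38.p6.

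Here arrays were rescaled to a common 2% trimmed mean, 64 control probe sets were left out, signals were floored at the 40th percentile (138.9) and taken to log2. A probe set counted as measured if above the floor on at least 1 of the 2 arrays compared; a fold against a floored signal is a lower bound. For gene counts the probe set with the highest mean log2 signal stood for its gene. With 1 array per group nothing was tested. The 6 comparisons used a 2-fold rule, with 1.5-fold beside it, and were checked on artificial signals with known folds. Named are all member probe sets and, of each pathway list, the genes past 2-fold and up to 4 with the highest mean log2 signal. Preset proteasome and antigen presentation genes, Stat2 and Irf9 are named too, and Irf8 beside the other regulatory factors. Of the cell type markers only some of those past 2-fold are named. Members and lists were chosen with earlier results of these data known. Alternatives were other normalizations, floors, a pseudocount, the mean of probe sets, fold rules and chow references. RefSeq promoter windows were found for all 9 members. Computations used Python 3.11.15, pandas 2.3.3, scipy 1.17.1 and limma 3.58.1.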

Additional observations from a re-analysis of the deposited data

Results flagged for a closer look

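For 3 member probe sets the ratio of diet over chow had opposite signs at 10 weeks and at 1 week. The difference between the times was not tested, and each side is 1 array. Rsad2 1436058_at had -1.06 at 10 weeks and 0.59 at 1 week, a difference of -1.65 on the log2 scale. Rsad2 1421008_at had 0.44 and -0.56, a difference of 1.0, with the sign turned relative to the first probe set of the same gene. Ifit1 had 0.85 and -0.020, a difference of 0.87, where the 1-week value is close to 0.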

How the results depend on the processing

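Of 53 alternative values of the member medians 50 moved by less than the standard error of the median over the member genes, a yardstick of their scatter and not of replicates, and of 59 alternative counts past the fold rule 48 stayed within 1.5 times. The sign of the median was the same under all settings run for the diet over chow at 10 weeks (0.55 to 0.65) and at 1 week (0.14 to 0.22), for atorvastatin over the diet (-0.30 to -0.24) and for the diet at 10 weeks over 1 week (0.35 to 0.59). For atorvastatin over chow it was -0.090, but 0.15 when probe sets were averaged per gene, 0.20 with chow averaged over both times and 0.12 with chow of 1 week, so its direction is not settled. With chow of 1 week Psmb8 moved from -0.090 to 0.49. The member past 2-fold for the diet over chow at 10 weeks was lost (0 members) with a pseudocount, with chow averaged over both times and with chow of 1 week; the atorvastatin count fell to 1 with a pseudocount. With a 1.5-fold rule the counts were 5 for the diet over chow at 10 weeks, 2 at 1 week, 1 for atorvastatin over chow and 4 for the diet at 10 weeks over 1 week. With a 3-fold rule they were 0 in all 6 comparisons. Leaving out x_at and s_at probe sets changed nothing, since no member has one. Leaving out the rescaling changed almost nothing, since the trimmed means were already near 500.2 on each array. Neither setting could have moved a result, and both are among the values counted as unmoved. The yardstick was also wide, at 0.33 for the diet over chow at 10 weeks, where the median was 0.60. The mean of probe sets has no count of probe sets, so only its medians were taken. Between 1.3-fold and 2-fold, the count of members highest on the 10-week diet array was 2 and 0, rules chosen after seeing the data. No paired analysis was possible because each group is 1 array. No signal-over-background measure other than the floor was used.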
